A study of Homo sapiens with 12 samples.

Results

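Transcripts of 10 genes that encode AP-1 subunits or their bZIP partners were followed across the 12 RNA-seq libraries of the series. The members were named by gene: the JUN family (JUN, JUNB, JUND), the FOS family (FOS, FOSB, FOSL1, FOSL2), ATF2 and ATF3, and the small MAF protein MAFF. Each was found by its Entrez ID, so that 10 of the 23459 genes in the table were taken, and all 10 passed the filter on low counts that left 14775 genes for testing. The libraries came from MCF10A, an immortalised, non-tumorigenic human mammary epithelial line, carrying a doxycycline-inducible YAP5SA allele in all 4 groups. YAP5SA is a form of the coactivator YAP that the Hippo kinases cannot inactivate. The cells had also been infected with an empty vector or with a JUN expression vector, and received either doxycycline (Dox, 100 ng/ml) or ethanol (EtOH), its solvent. The groups, with 3 libraries each, are called vector EtOH and vector Dox where the empty vector was used, and JUN EtOH and JUN Dox where the JUN vector was. All cells were grown in medium with horse serum, EGF, insulin, hydrocortisone and cholera toxin. No group received doxycycline without the YAP5SA allele, so an effect of the drug and an effect of YAP5SA cannot be told apart here. The promoter that drove JUN in these cells was not given in the sources used here.

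AP-1 is a family of dimeric transcription factors. Its subunits share a basic region that contacts DNA and a leucine zipper through which they pair. JUN proteins pair with each other or with FOS proteins, whereas FOS proteins need a JUN or another bZIP partner to bind DNA, and ATF proteins pair with JUN proteins and favour a slightly longer site. FOS, FOSB, JUNB, ATF3 and MAFF are known as early response genes whose transcripts rise briefly after serum, growth factors or stress, while FOSL1 and FOSL2 follow later and persist. AP-1 and the TEAD factors, through which YAP acts, often occupy the same enhancers in epithelial cells.

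On GRCh37, the canonical transcripts of the JUN family lie at chr1:59246463-59249719 (JUN, minus strand), chr19:12902300-12904129 (JUNB, plus) and chr19:18390504-18392432 (JUND, minus). Those of the FOS family lie at chr14:75745531-75748933 (FOS, plus), chr19:45971254-45978437 (FOSB, plus), chr11:65659520-65667859 (FOSL1, minus) and chr2:28615725-28640184 (FOSL2, plus). The remaining members lie at chr2:175936987-176032931 (ATF2, minus), chr1:212782103-212794117 (ATF3, plus) and chr22:38598001-38612514 (MAFF, plus).

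Library depth was 18594867 to 28993487 counts. The unit of level is CPM, a gene's counts on a common library size after TMM normalization, which compares a gene between libraries but not different genes, for which CPM per kilobase of the canonical transcript is used. YAP1, whose counts include the YAP5SA transcript where it maps to the gene, had 171 to 191 CPM in vector EtOH and 211 to 249 in JUN EtOH, against 216 to 273 in vector Dox and 208 to 365 in JUN Dox. The EtOH and Dox ranges of YAP1 were apart in vector cells but overlapped in JUN cells. Whether YAP5SA was induced equally in both kinds of cell was not tested. All 10 basal mammary epithelial markers were present in every library, and 8 of 12 markers of other cells stayed at or under 1 CPM in every library, CD3E and LYZ at 0 throughout. Among the other 4, PDGFRA reached 87.9 to 156 CPM and DCN 2.93 to 22.4 CPM. The summed level of all 12 was 112 to 126 CPM in vector EtOH and 108 to 120 in JUN EtOH, against 122 to 162 in vector Dox and 121 to 137 in JUN Dox. That of the basal markers was 11128 to 11586 CPM in vector EtOH and 10676 to 12203 in JUN EtOH. In vector Dox it was 7486 to 7626 CPM and in JUN Dox 6809 to 9479, so the basal sum was lower in every induced library than in any uninduced one. The other sum overlapped between vector EtOH and vector Dox, but was higher in every JUN Dox library than in any JUN EtOH library. PDGFRA made up most of that sum, and its change on induction in JUN cells was not called (log2 0.299). Of the 12 markers, 5 were tested there, with 0 called higher and 2 lower. These were COL1A1 and PECAM1, which reached at most 3.96 and 1.95 CPM. The part of either sum in the results below was not tested. Vector Dox 1 lay farthest from its replicates, at 60.1 and 47.8 on a chi-square statistic of gene counts divided by its degrees of freedom, against 9.26 between the other two. The libraries JUN Dox 1 and JUN Dox 3, at 50.03 from each other, differed in base composition: relative to their group mean, log2 levels changed by -0.112 and by 0.100 for every 10% of GC content, respectively. The members most exposed to such a trend were JUND (69.9% GC) and JUNB (64.9% GC), and ATF2 (36.9% GC) at the other end.

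Promoter windows of 5 members are shown to place their AP-1-type sites beside the changes described below: JUN and MAFF, which rose on YAP5SA induction in vector cells, FOS and JUNB, which fell, and FOSL2, which fell on induction in JUN cells. The sequences are those of RefSeq on GRCh38.p14, each read 5′ to 3′ on the strand of its gene, from 250 bases before to 50 bases after a start. Capitals mark matches on either strand to TGACTCA (the TPA response element, TRE), TGACGTCA (the cyclic AMP response element, CRE), TGACATCA (a CRE variant known from the JUN promoter) or the CRE core TGACG, which also lies within TGACGTCA.
JUN, chr1:58783998-58784297, minus strand: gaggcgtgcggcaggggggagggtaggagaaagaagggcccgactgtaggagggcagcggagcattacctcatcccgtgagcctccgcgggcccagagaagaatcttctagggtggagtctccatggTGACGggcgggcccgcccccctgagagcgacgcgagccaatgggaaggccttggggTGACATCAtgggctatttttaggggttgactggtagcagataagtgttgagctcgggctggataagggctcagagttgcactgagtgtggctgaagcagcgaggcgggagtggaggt
MAFF, chr22:38201744-38202043, plus strand: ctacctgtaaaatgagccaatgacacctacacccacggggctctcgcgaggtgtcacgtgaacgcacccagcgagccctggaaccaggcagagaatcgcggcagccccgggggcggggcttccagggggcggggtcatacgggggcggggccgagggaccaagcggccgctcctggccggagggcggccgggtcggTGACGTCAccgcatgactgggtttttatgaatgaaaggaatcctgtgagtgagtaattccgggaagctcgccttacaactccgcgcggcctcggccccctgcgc
FOS, chr14:75278578-75278877, plus strand: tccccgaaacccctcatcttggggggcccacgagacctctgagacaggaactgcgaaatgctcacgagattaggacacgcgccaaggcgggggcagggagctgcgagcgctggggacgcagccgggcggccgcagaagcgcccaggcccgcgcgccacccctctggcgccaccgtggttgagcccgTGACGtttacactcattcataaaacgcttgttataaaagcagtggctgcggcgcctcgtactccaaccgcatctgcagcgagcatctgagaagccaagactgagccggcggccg
JUNB, chr19:12791236-12791535, plus strand: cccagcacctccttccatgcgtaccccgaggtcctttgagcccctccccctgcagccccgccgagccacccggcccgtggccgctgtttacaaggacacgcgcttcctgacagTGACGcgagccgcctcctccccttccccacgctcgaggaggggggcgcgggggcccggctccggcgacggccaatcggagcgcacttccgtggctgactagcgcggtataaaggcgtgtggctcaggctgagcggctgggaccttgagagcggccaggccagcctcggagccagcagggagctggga
FOSL2, chr2:28392608-28392907, plus strand: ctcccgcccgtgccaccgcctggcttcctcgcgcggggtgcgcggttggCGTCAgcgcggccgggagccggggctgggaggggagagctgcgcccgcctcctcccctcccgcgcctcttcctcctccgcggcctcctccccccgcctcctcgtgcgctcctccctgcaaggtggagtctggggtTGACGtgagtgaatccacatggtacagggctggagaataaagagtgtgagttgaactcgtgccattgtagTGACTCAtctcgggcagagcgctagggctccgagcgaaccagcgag

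The table held 10 windows for 8 of the members, 2 each for ATF3 and MAFF, and none for ATF2 and FOSL1. TGACATCA began 67 bases before the JUN start and was also in a window of ATF3, against 2.61% of all 35116 promoter windows in the table. The full CRE stood in MAFF, 54 bases before its start, and in JUND, against 1.85% of all windows, and the TRE only in FOSL2, against 4.95%. TGACG was in 7 of the 10 windows, against 24.6% of all. It began 64 bases before the FOS start, 60 before that of FOSB and 137 before that of JUNB. Among the 16734 windows of tested genes, the shares were 31.1% for TGACG, 2.62% for the full CRE, 3.90% for the TRE and 1.63% for TGACATCA. GGAATG, the letters that TEAD factors recognise, and the CArG box, the serum response factor site, were in none of the 10 member windows. Their shares were 14.0% and 1.29% of all windows, and 11.5% and 1.14% of the windows of tested genes. Sites more than 250 bases before a start were not searched, and 10 windows are too few to show a lack of sites this rare. These matches describe the letters only. Genes that rose and genes that fell on induction both carried CRE-type letters.

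In the uninduced control cells, vector EtOH, JUNB and JUND were the most abundant members per kilobase of canonical transcript. JUNB had 66.5 ± 6.03 and JUND 61.8 ± 0.490 CPM per kb (SD, n = 3 here and below), and the ranges of these neighbours overlapped. FOSL1, a FOS protein without the C-terminal activation domain of FOS, followed with 44.9 ± 3.93, and FOSL2 with 26.8 ± 2.67 CPM per kb, each apart from its neighbours in all libraries. JUN had 14.6 ± 3.24, MAFF 12.8 ± 1.30 and FOS 10.6 ± 1.81 CPM per kb, and each overlapped the next. ATF2 had 7.24 ± 0.721, ATF3 1.10 ± 0.0654 and FOSB 0.223 ± 0.0501 CPM per kb. The order changed with induction. In vector Dox, FOSL1 led with 122 ± 15.3 and JUN came second with 58.2 ± 1.28 CPM per kb, both apart from their neighbours, while FOS was next to last with 1.53 ± 0.381, below ATF3. In JUN EtOH, JUN led with 393 ± 57.4 CPM per kb and FOSL1 came second with 98.9 ± 9.40. The same genes led in JUN Dox, with 383 ± 28.3 and 248 ± 32.0 CPM per kb. In JUN Dox, MAFF (32.2 ± 2.19 CPM per kb), FOSL2 (31.5 ± 1.16), JUNB (26.8 ± 3.73) and JUND (20.5 ± 6.02) each overlapped the next. The aligner did not split reads across introns, so JUN, JUNB and JUND, which have 1 exon each, lost no reads to junctions, whereas ATF2, with 14 exons, could lose the most. The order also depended on the length used: per kilobase of coding sequence FOSL2 led in vector EtOH with 184 ± 18.3 CPM per kb, ahead of JUNB (117 ± 10.6), JUND (115 ± 0.907) and FOSL1 (94.0 ± 8.24), and it came second in vector Dox and JUN EtOH. Orders between genes carry these limits, and comparisons of a gene between groups do not, with JUN as the exception. Between vector cells and JUN cells, its fold values depend on how much of the transcript the vector carried, which is not known.

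**Figure D1:**
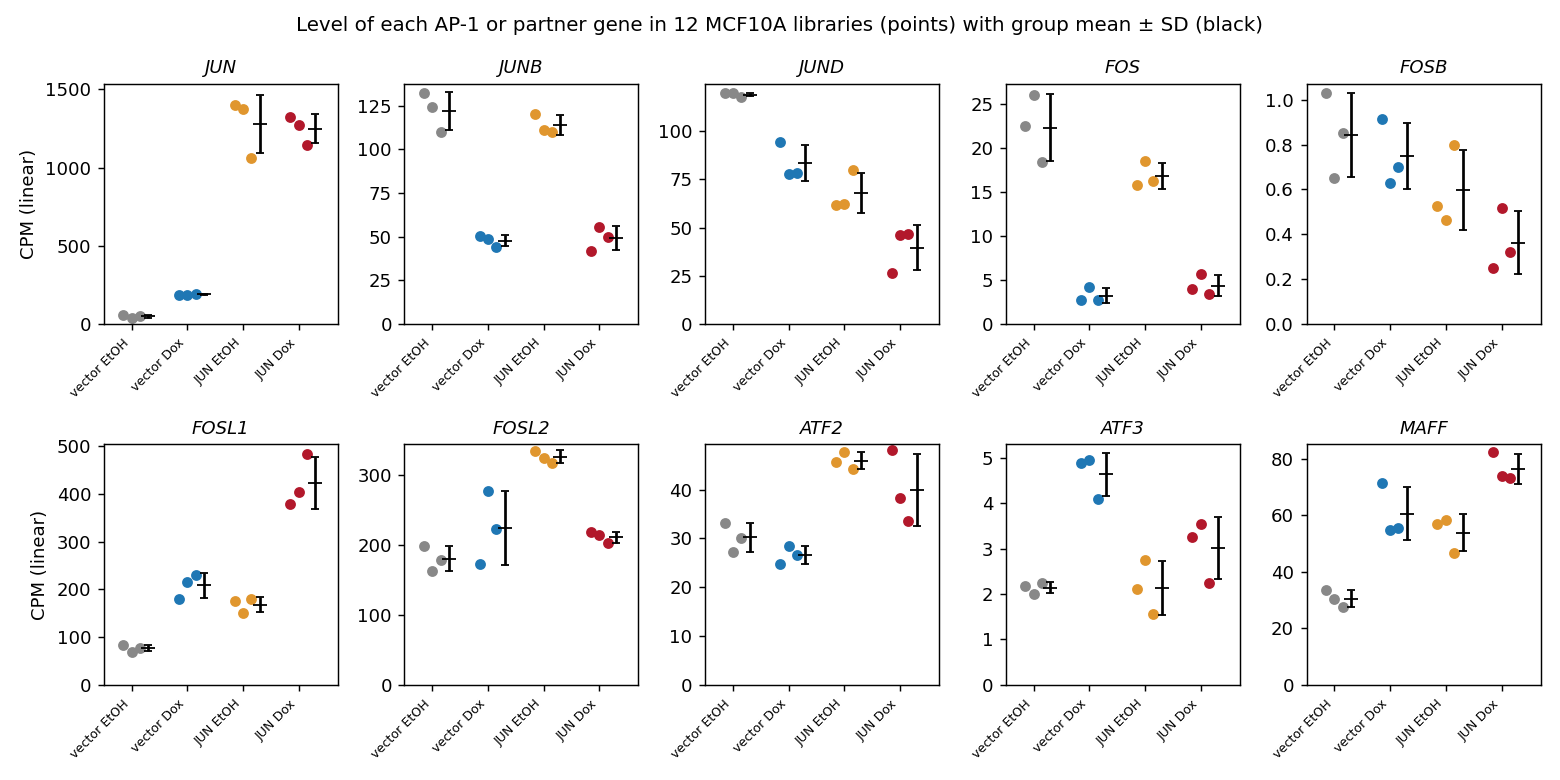
Level in CPM (linear axis from 0, with its own scale in each panel) of the 10 members in the 12 libraries, by group. Coloured points are libraries and the black mark is the group mean ± SD. JUN was highest in both JUN groups, FOS and JUNB were low in both Dox groups, and FOSL1 was highest in JUN Dox at 379 to 483 CPM.

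The first comparison asked which AP-1 transcripts changed when YAP5SA was induced in cells with the empty vector. Of the 10 members, 7 were called at an adjusted p under 0.05: JUN, FOSL1, ATF3 and MAFF rose, and FOS, JUNB and JUND fell. Over all tested genes, 30.1% were called, 15.6% higher and 14.4% lower. The median log2 fold change was 0.07 over the members and 0.007 over all genes. FOSB, FOSL2 and ATF2 were not called. In bulk libraries such as these, fewer cells that express a gene and less RNA per cell cannot be told apart.

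JUN, the subunit that activates most strongly within its family, had 55.0, 35.5 and 52.2 CPM in the vector EtOH libraries and 188, 186 and 194 CPM in vector Dox. Every induced library lay above every control, with a 3.98-fold rise (log2 1.99 ± 0.16 SE, adjusted p = 3.09e-07). JUNB, which activates more weakly than JUN at most sites, had 132, 124 and 110 CPM before and 50.5, 48.4 and 44.2 CPM after induction. The groups did not overlap, and JUNB was 2.55-fold lower (log2 -1.35 ± 0.11, adjusted p = 4.60e-07). JUND, a subunit usually expressed steadily in resting cells, had 120, 120 and 118 CPM without and 94.3, 78.0 and 78.5 CPM with Dox. That fall was the smallest of the 3 JUN family changes (log2 -0.51 ± 0.17, adjusted p = 0.0355), and its call was lost in 5 of 19 alternative fits, each of which left out 1 library, with adjusted p up to 0.110 without vector Dox replicate 3. JUNB lies within HOOK2, a gene on the opposite strand with a mean of 293.1 counts, and the use of strand in counting is not stated, so reads of these genes cannot be told apart and the level of JUNB is uncertain.

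FOS, the prototype early response subunit, had 22.5, 26.0 and 18.4 CPM in vector EtOH and 2.75, 4.15 and 2.77 CPM in vector Dox. It was 6.92-fold lower after induction (log2 -2.79 ± 0.21, adjusted p = 1.24e-07), the 76th lowest log2 fold change among the 14775 genes. FOSL1 moved the opposite way. It had 82.7, 69.4 and 77.2 CPM without and 179, 215 and 230 CPM with induction, a 2.72-fold rise with no overlap (log2 1.44 ± 0.13, adjusted p = 9.28e-07). FOSL2, the other FOS protein that lacks the strong activation domain, had 198, 162 and 179 CPM in vector EtOH and 172, 277 and 223 CPM in vector Dox. These groups overlapped through vector Dox replicate 1, and the difference was not called (log2 0.32 ± 0.14, adjusted p = 0.103). Without that library the adjusted p was 0.00540. FOSB had 13 to 27 counts in the vector EtOH libraries and 14 to 21 in vector Dox (log2 -0.18 ± 0.35, adjusted p = 0.737). It lies wholly within ERCC1 on the opposite strand, which had a mean of 2757.8 counts, and its few counts are uncertain for that reason too.

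ATF3, a stress-responsive bZIP protein that mostly represses, had 2.17, 2.0 and 2.24 CPM in vector EtOH and 4.88, 4.96 and 4.09 CPM in vector Dox. The rise was 2.17-fold without overlap (log2 1.12 ± 0.23, adjusted p = 0.00175), on 40 to 112 counts per library. MAFF, a small MAF protein with no activation domain of its own, had 33.7, 30.2 and 27.6 CPM before and 71.5, 54.8 and 55.6 CPM after induction. It rose 1.99-fold, again without overlap (log2 0.99 ± 0.13, adjusted p = 3.83e-05). Its span overlaps PLA2G6 on the opposite strand, a gene with a mean of 35.9 counts. ATF2, a constitutively expressed JUN partner that is controlled mainly by phosphorylation, had 27.2 to 33.2 CPM without and 24.8 to 28.4 CPM with induction, and these ranges overlapped (adjusted p = 0.308).

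The second comparison asked what the JUN vector did without induction. Beside JUN itself, 5 members were called in JUN EtOH against vector EtOH: FOSL1, FOSL2, ATF2 and MAFF rose and JUND fell. Over all tested genes, 39.0% were called, 20.1% higher and 18.9% lower, so that calls were frequent in this comparison. The members' median log2 fold change was 0.30, against 0.001 over all genes. JUNB, FOS, FOSB and ATF3 were not called.

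JUN counts sum the endogenous transcript and that of the vector. JUN had 1399, 1374 and 1064 CPM in JUN EtOH, 26.8-fold above vector EtOH (log2 4.75 ± 0.18, adjusted p = 1.74e-10). FOSL1 reached 176, 150 and 179 CPM, 2.20-fold above its controls (log2 1.14 ± 0.13, adjusted p = 9.18e-06). FOSL2 reached 335, 325 and 317 CPM, above all 3 controls, a 1.81-fold rise (log2 0.86 ± 0.14, adjusted p = 2.87e-04). Transcripts of both late FOS genes were thus higher with the vector. FOS itself had 15.8, 18.5 and 16.2 CPM against 18.4 to 26.0 CPM, with JUN EtOH replicate 2 just inside the control range, and was not called (log2 -0.40 ± 0.18, adjusted p = 0.0857). Its call depended on the fit, since the adjusted p was 0.0162 with only the libraries of the comparison.

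JUND was lower in JUN EtOH, with 61.6, 62.3 and 79.7 CPM against 118 to 120 CPM in the controls. The fall was 1.76-fold (log2 -0.81 ± 0.17, adjusted p = 0.00213) and was called in every alternative fit. JUNB had 120, 111 and 110 CPM, inside the control range of 110 to 132 CPM (log2 -0.10 ± 0.11, adjusted p = 0.501). The JUN family genes other than JUN therefore differed here, JUND being called and JUNB not, and that difference between the genes was not tested.

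MAFF had 57.0, 58.4 and 46.5 CPM in JUN EtOH, 1.77-fold above its controls with no overlap (log2 0.82 ± 0.13, adjusted p = 1.88e-04). ATF2 had 45.7, 47.7 and 44.3 CPM against 33.2, 27.2 and 30.1, a 1.52-fold rise (log2 0.60 ± 0.12, adjusted p = 0.00172). ATF3 had 2.11, 2.74 and 1.55 CPM, on both sides of the control range of 2.0 to 2.24 CPM (log2 0.00 ± 0.24, adjusted p = 0.994).

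With the JUN vector present, YAP5SA induction called 6 members. FOSL1 and MAFF rose, and FOS, JUNB, JUND and FOSL2 fell. Here 21.4% of tested genes were called, 11.2% higher and 10.3% lower, and the median log2 fold change was -0.41 over the members and 0.003 over all genes. Whether each response differed from that in vector cells was tested by the interaction, the log2 response of JUN cells less the log2 response of vector cells. It was called for JUN and FOSL2, both below 0. Over all tested genes 1.12% had a called interaction, 0.291% above 0 and 0.826% below 0.

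FOSL1 had 379, 403 and 483 CPM in JUN Dox, 2.51-fold above JUN EtOH (log2 1.33 ± 0.13, adjusted p = 3.92e-06). The interaction was -0.12 ± 0.18 and not called (adjusted p = 0.954). In CPM, induction added 132 ± 15.5 (SE) in vector cells and 253 ± 32.8 in JUN cells. JUN Dox held the 3 highest FOSL1 levels of all libraries.

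FOS fell to 4.01, 5.66 and 3.41 CPM, 3.87-fold below JUN EtOH (log2 -1.95 ± 0.20, adjusted p = 6.70e-06). The interaction was 0.84 ± 0.28, a smaller fall than in vector cells, but it was not called (adjusted p = 0.244). JUNB fell to 41.8, 55.4 and 49.9 CPM, a 2.32-fold decrease close to that in vector cells (log2 -1.21 ± 0.11, adjusted p = 2.91e-06, with an interaction of 0.14 ± 0.16). JUND fell to 26.2, 46.0 and 46.6 CPM (log2 -0.77 ± 0.18, adjusted p = 0.00554). Its lowest value came from JUN Dox 1, the library with the strongest loss of GC-rich genes. Without it the log2 fold change of JUND was -0.55. With a term for the GC trend the call remained, with a smaller adjusted p of 9.59e-05. That term was built from deviations from the group means, so it cannot show whether GC content shifted levels between groups.

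FOSL2 went from 335, 325 and 317 CPM in JUN EtOH to 218, 214 and 203 CPM in JUN Dox, a 1.54-fold fall with no overlap (log2 -0.62 ± 0.14, adjusted p = 0.00518). In vector cells its change had been 0.32 and not called. The interaction of -0.94 ± 0.20 was called (adjusted p = 0.0294) but lost the call in 9 of 18 alternative fits, all of them fits that left out 1 library, with log2 values of -0.959 to -0.752 and adjusted p of at most 0.103. FOSL2 in JUN Dox ended within the range of vector Dox.

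JUN showed no measurable further rise in cells that carried the vector. It had 1325, 1274 and 1146 CPM in JUN Dox, within the spread of JUN EtOH (log2 -0.03 ± 0.15, adjusted p = 0.910), and the interaction was -2.03 ± 0.22 (adjusted p = 1.33e-04). In vector cells induction added 142 ± 6.54 CPM (SE). The corresponding difference in JUN cells was -30.4 ± 120 CPM, an error nearly as large as that increment, so a rise of endogenous JUN of that size was not measurable there. From the higher start in JUN cells, an equal rise in CPM also gives a smaller log2 change. The JUN interaction therefore does not show that the endogenous response differed. MAFF had 73.9, 73.1 and 82.4 CPM in JUN Dox, all above JUN EtOH (log2 0.50 ± 0.13, adjusted p = 0.0100), a call lost without JUN EtOH replicate 3 (adjusted p = 0.0526). ATF3 had 3.26, 3.54 and 2.24 CPM, which overlapped JUN EtOH (log2 0.48 ± 0.23, adjusted p = 0.164), and its interaction was -0.63 ± 0.32 (adjusted p = 0.638). FOSB had 5, 12 and 9 counts, and ATF2 33.6 to 48.1 CPM, and neither was called.

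The fourth comparison set JUN Dox against vector Dox, the JUN vector under induction. Here 35.6% of tested genes were called, 18.4% higher and 17.2% lower. Of the members, JUN, FOSL1, ATF2 and MAFF were called higher and JUND and ATF3 lower, with a median log2 fold change of 0.19 over the members and 0.003 over all genes. FOSL1 was 2.03-fold higher (log2 1.02 ± 0.13, adjusted p = 2.32e-05) and ATF2 1.5-fold (log2 0.59 ± 0.13, adjusted p = 0.00240). JUND was 2.11-fold lower (log2 -1.07 ± 0.18, adjusted p = 2.79e-04), and all 3 JUN Dox libraries lay below vector Dox. JUND was thus called lower in each of the 4 pairwise comparisons, which share their groups, and had its lowest levels in JUN Dox. Its call on induction in vector cells was lost in 5 of 19 alternative fits. The lowest value, 26.2 CPM, was that of JUN Dox 1, the library with the strongest loss of GC-rich genes.

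JUN was 6.58-fold higher (log2 2.72 ± 0.16, adjusted p = 1.60e-08). MAFF was at the threshold (log2 0.33 ± 0.13, adjusted p = 0.0495), and its call was lost in 13 of 19 alternative fits, with adjusted p up to 0.162 without vector Dox replicate 3. ATF3 was 1.55-fold lower (log2 -0.63 ± 0.22, adjusted p = 0.0361), a call lost in 6 of 19, with adjusted p up to 0.138 without JUN Dox replicate 3. FOSB had non-overlapping groups, with 0.251 to 0.519 CPM against 0.631 to 0.916 CPM, and was not called (log2 -1.03 ± 0.39, adjusted p = 0.0514), but was called in 3 of 19 alternative fits, with adjusted p down to 0.0399 without JUN Dox replicate 2 (log2 -1.36). JUNB (log2 0.04 ± 0.11), FOS (log2 0.44 ± 0.22) and FOSL2 (log2 -0.08 ± 0.14) were not called, with adjusted p of 0.805, 0.133 and 0.670. FOS was called with the replicate block (log2 0.43, adjusted p = 0.0405) and without vector Dox replicate 2 (log2 0.66, adjusted p = 0.0351). Of the 27 member calls over all 5 comparisons, 22 held in every alternative fit.

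**Figure D2:**
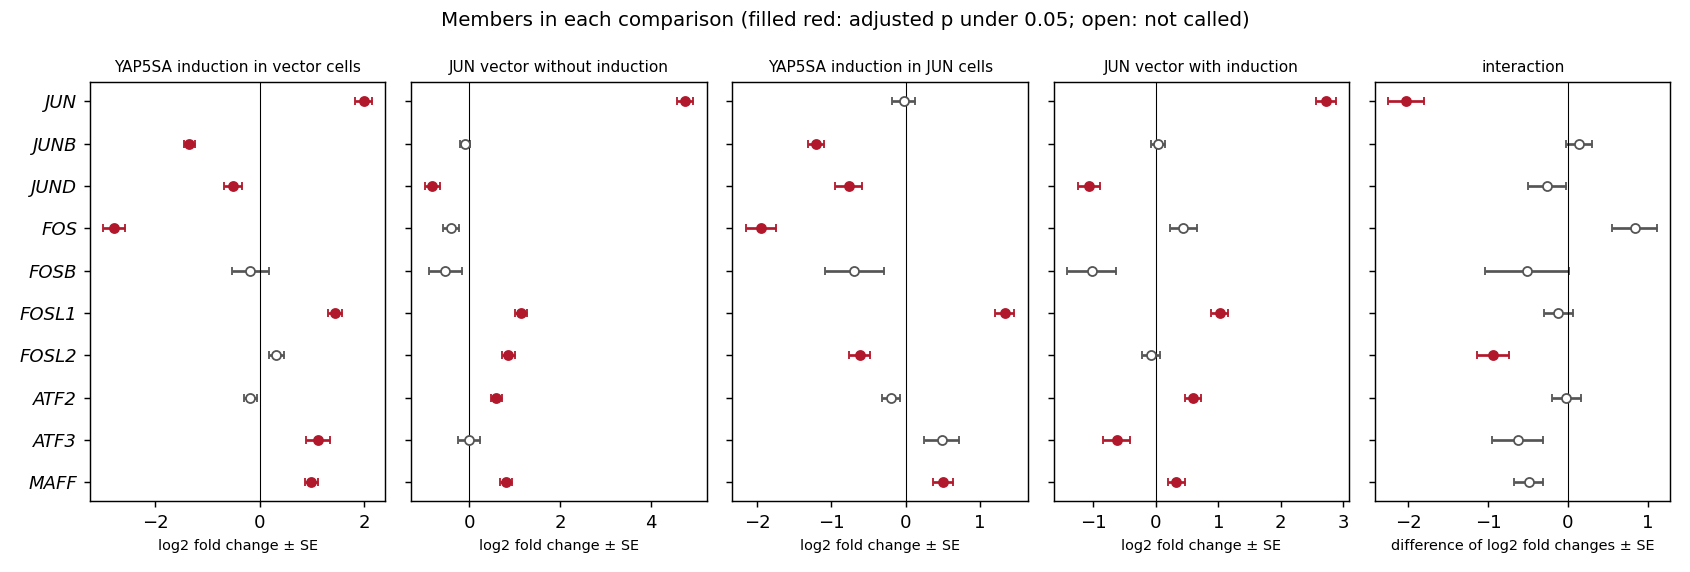
Log2 fold change ± SE of each member in the 4 pairwise comparisons and, at the right, the interaction as a difference of log2 fold changes ± SE (each panel has its own axis). Filled red points had an adjusted p under 0.05 and open points did not. FOS and JUNB lay left of 0 and FOSL1 right of 0 on induction with and without the JUN vector, and the interaction was called for JUN and FOSL2.

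The make-up of each family was described per unit length in every library, with no test. In vector EtOH, JUN made up 7.8% to 11.7% of the JUN family sum, JUNB 43.7% to 48.1% and JUND 41.2% to 44.6%. In vector Dox, JUN took 43.0% to 47.9%, JUND 32.6% to 36.4% and JUNB 19.4% to 21.3%. JUN thus went from the least to the most abundant JUN family transcript. The JUN family sum itself was 137 to 151 CPM per kb in vector EtOH and 124 to 134 in vector Dox with canonical lengths, and 269 to 297 and 309 to 329 with coding lengths, so its direction on induction depended on the length used. With the JUN vector, JUN made up 76.3% to 82.0% before and 87.2% to 91.8% after induction, and JUNB and JUND made up the rest.

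With canonical lengths, FOSL1 was the most abundant FOS family transcript in every library. With coding lengths FOSL2 led in all 6 EtOH libraries and in vector Dox replicate 2, its share being 60.4% to 62.3% in vector EtOH, against 31.1% to 32.2% for FOSL1. The shares that follow are those by canonical length. The FOSL1 share was 52.6% to 56.0% in vector EtOH and 74.5% to 79.5% in vector Dox. With the JUN vector the share was 60.6% to 65.6% before and 86.6% to 89.9% after induction. The FOS share was 10.8% to 15.9% in vector EtOH and 0.775% to 1.16% in vector Dox. It was 4.66% to 6.03% in JUN EtOH and 0.514% to 0.990% in JUN Dox, so induced cells of either kind had almost no FOS within the family. FOSL2 held 31.2% to 33.1% in vector EtOH and 29.4% to 33.3% in JUN EtOH, against 19.3% to 24.3% and 9.56% to 12.6% in the matching Dox groups. FOSB never exceeded 0.305%.

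**Figure D3:**
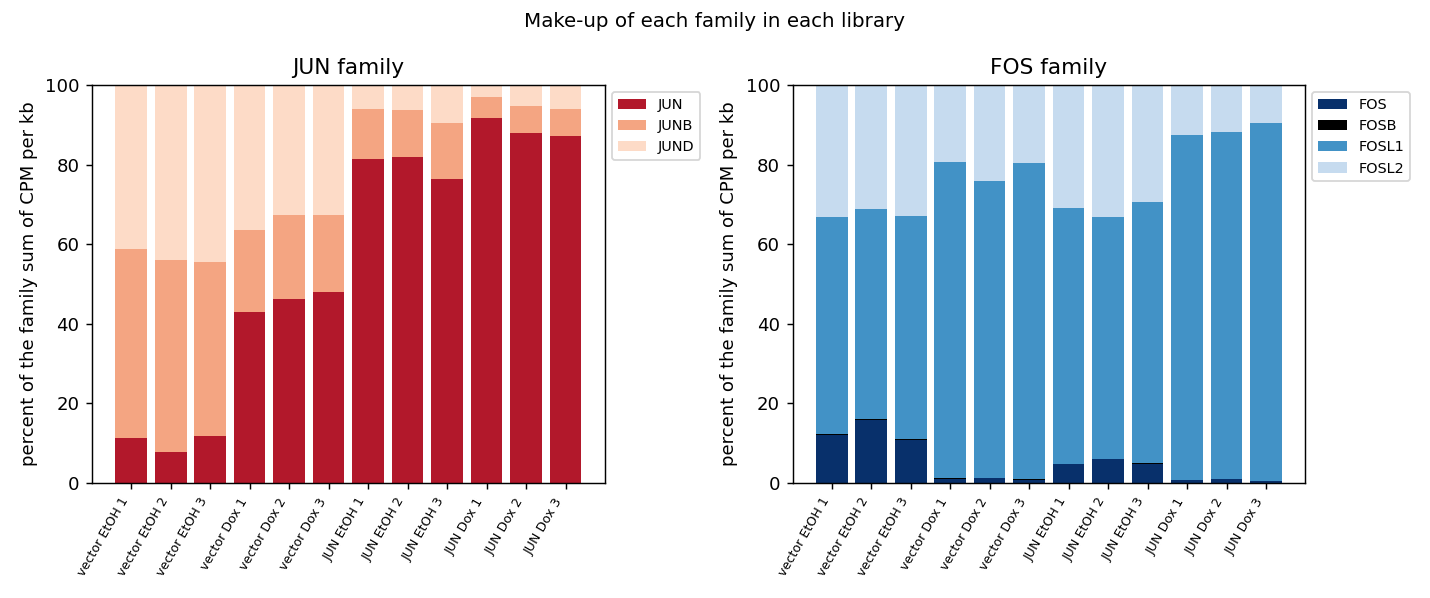
Percent of each family's summed CPM per kb contributed by each gene, as stacked bars from 0 to 100 for each of the 12 libraries (JUN family left, FOS family right). JUN was the largest part of its family in every library but those of vector EtOH, and FOSL1 filled 86.6% to 89.9% of the FOS family in JUN Dox.

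The FOS family sum was 82.5 ± 5.95 CPM per kb in vector EtOH and 157 ± 21.6 in vector Dox. It was 156 ± 8.81 in JUN EtOH and 281 ± 30.5 in JUN Dox. The ratio of JUN family to FOS family transcripts was 1.70, 1.81 and 1.70 in vector EtOH and 1.02, 0.730 and 0.734 in vector Dox. With the JUN vector it was 3.28, 3.54 and 2.67 before and 1.73, 1.64 and 1.28 after induction. In both kinds of cell, every induced library had a lower ratio than every uninduced one. The order of the groups by mean ratio depended on the length used. With canonical lengths the means were 1.73 in vector EtOH, 0.827 in vector Dox, 3.16 for JUN EtOH and 1.55 for JUN Dox. With coding lengths they were 0.938, 0.665, 2.64 and 1.83 in the same order, so that the control cells went from an excess of JUN family transcripts to slightly fewer than FOS family transcripts and JUN Dox came to lie above them. How much of the JUN transcript the vector carried was not given in the sources used here, so neither length is exact for JUN cells. The ratio is one of transcripts and not of proteins.

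**Figure D4:**
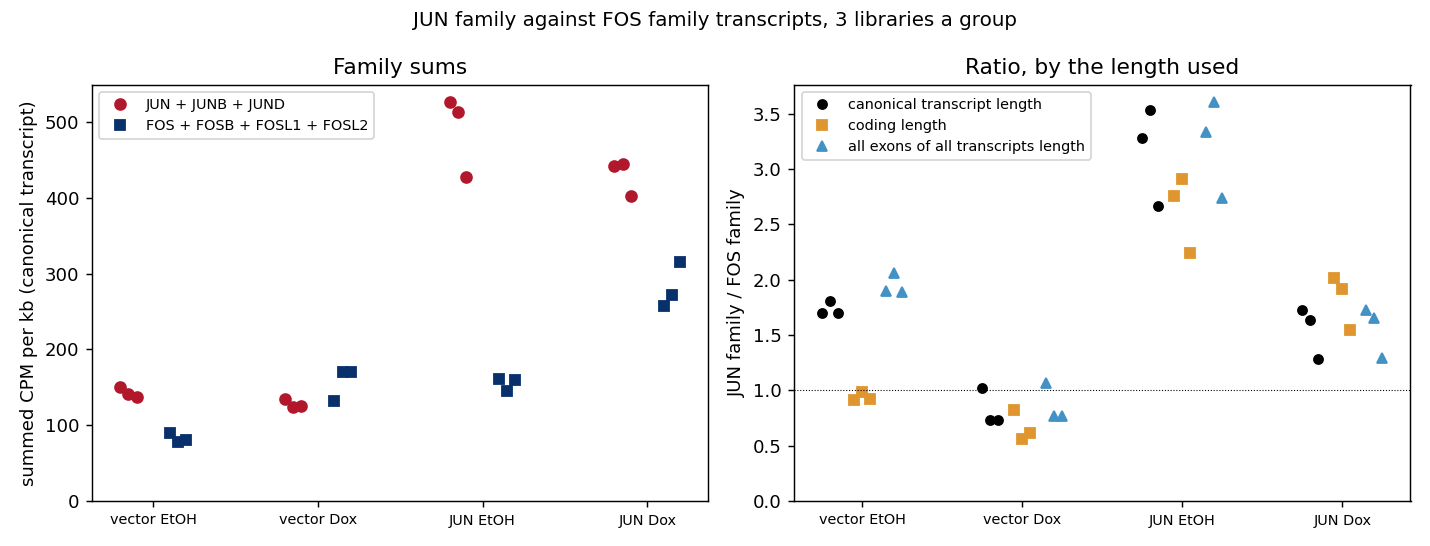
Left, summed CPM per kb of the JUN family (circles) and the FOS family (squares) in the 3 libraries of each group. Right, the ratio of JUN to FOS family sums with 3 choices of length, with a dotted line at 1. Within vector cells and within JUN cells, induced libraries had lower ratios than uninduced ones with each choice of length, while the vector EtOH libraries lay above 1 with canonical lengths and below 1 with coding lengths.

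Members also differed in how they varied together over the 12 libraries. The correlations are of log2 CPM over libraries that share the same 4 groups, and are given as a description. JUNB and FOS moved together most closely (Pearson r = 0.97), as did FOSL1 with MAFF (0.91) and JUND with FOSB (0.90). JUND ran against FOSL1 (-0.86), JUN (-0.83) and MAFF (-0.83). The remaining 39 of 45 pairs lay between -0.8 and 0.8.

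The genes whose pattern was most like a member's were looked up among all tested genes of at least 5 CPM on average. FOSL1 was followed most closely by CORO1C, a coronin that binds actin (r = 0.994), whose mean was 222 CPM in vector EtOH, 358 in vector Dox, 316 for JUN EtOH and 499 for JUN Dox. FOSL1 was also followed by KRT34 (0.985). MAFF resembled SAR1A (0.982) and F3, the gene of tissue factor (0.977), which had 87.5, 861, 433 and 1450 CPM in the same order. JUNB resembled ID1, a target of BMP signalling (0.984), and CEBPB, a bZIP factor (0.983), and FOS resembled TSC22D1 (0.984). These genes were low in both Dox groups, for example ID1 with 275, 83.6, 263 and 78.0 CPM.

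The nearest patterns to JUN were ALDH1A3 (0.989) and PTPN9 (0.986), and those to JUND were TKFC (0.979) and FAM83F (0.978). ATF2 resembled BAZ2B (0.993) and EFCAB14-AS1 (0.987), and ATF3 resembled SRRM1 (0.961) and HMGCS1, an enzyme of the cholesterol pathway (0.956). FOSL2 had looser neighbours, MET, the receptor of hepatocyte growth factor (0.943), and GSK3B (0.941), as did FOSB, with BAMBI (0.930) and JUND (0.899).

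A set of 3 lists placed the members among related genes. Over all tested genes, 15.6% were called higher and 14.4% lower on induction in vector cells. On induction in JUN cells these shares were 11.2% and 10.3%. With the JUN vector they were 20.1% and 18.9% without induction, and 18.4% and 17.2% with it. No list was tested against these shares. Of 41 other bZIP genes, 35 were tested. On induction in vector cells 8 were called higher and 11 lower, with a median log2 fold change of 0.04, and in JUN cells 4 higher (BATF3, CREB3L2, NFE2L3, XBP1) and 5 lower (among them CEBPB, CEBPD, NFE2 and NFIL3), with a median of -0.04. Here and below, genes named only to spell out a count of 5 or fewer were chosen after their values were seen. Among these, BATF3, CEBPA, DBP, NFE2, DUSP8, IL6 and IVL averaged under 5 CPM over all libraries. CEBPB, a bZIP factor of differentiation and inflammation, fell in both, from 520 ± 30.9 to 166 ± 11.1 CPM in vector cells (log2 -1.65 ± 0.10, adjusted p = 2.37e-08) and from 555 ± 18.8 to 201 ± 14.3 CPM in JUN cells (log2 -1.46 ± 0.10, adjusted p = 2.27e-07). NFE2L3 rose in both, by log2 1.25 ± 0.15 and 1.00 ± 0.15 (adjusted p = 2.31e-05 and 2.52e-04). The JUN vector raised 12 and lowered 3 (CEBPA, DBP, NFE2) without induction (median 0.09), and raised 13 and lowered 7 with it (median 0.15).

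MAFK, which like MAFF is a small MAF protein, had 62.9 ± 3.08 CPM before and 108 ± 5.1 CPM after induction in vector cells, against 64.9 ± 1.33 and 75.2 ± 5.12 CPM in JUN cells, and its interaction was -0.57 ± 0.12 (adjusted p = 0.0337). MAFF had an interaction of the same sign, -0.49 ± 0.18, that was not called (adjusted p = 0.316). CREB5 and BACH1 were higher with the JUN vector without induction, by log2 1.27 ± 0.14 and 1.03 ± 0.14 (adjusted p = 9.73e-06 and 4.89e-05).

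All 31 kinases, phosphatases and other genes listed as acting on AP-1 proteins were tested. On induction 6 were called higher and 7 lower in vector cells (median log2 fold change -0.07), and 3 higher (DUSP2, DUSP5, MAPK8) and 6 lower in JUN cells (median -0.08). The JUN vector raised 13 and lowered 4 without induction (median 0.31), and raised 8 and lowered 4 with it (median 0.06). Over all tested genes 30.1% and 21.4% were called on induction in vector cells and JUN cells. With the JUN vector 39.0% were called without induction and 35.6% with it. DUSP2, DUSP8 and MAP2K3 were lower with the JUN vector both without and with induction, joined by MAP2K2 without and MAP3K1 with it. DUSP5 and DUSP6, phosphatases of the ERK kinases, moved in opposite directions. DUSP5 rose from 17.0 ± 0.551 to 84.7 ± 6.56 CPM on induction in vector cells (log2 2.31 ± 0.13, adjusted p = 6.87e-09), and from 33.7 ± 6.15 to 99.2 ± 7.27 CPM in JUN cells (log2 1.56 ± 0.12, adjusted p = 6.33e-07), and its interaction was at the threshold (-0.76 ± 0.17, adjusted p = 0.0493). DUSP6 fell from 75.7 ± 7.34 to 29.3 ± 3.54 CPM (log2 -1.37 ± 0.12, adjusted p = 5.86e-07) and from 94.0 ± 5.96 to 31.5 ± 3.34 CPM (log2 -1.58 ± 0.12, adjusted p = 3.65e-07). RPS6KA2, a kinase downstream of ERK, was higher with the JUN vector, by log2 0.89 ± 0.13 without and 0.96 ± 0.13 with induction (adjusted p = 9.21e-05 and 4.75e-05).

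Of 24 genes listed as canonical AP-1 targets, 19 were tested. The JUN vector raised 13 of them and lowered 2 (IL6, TIMP1) without induction, with a median log2 fold change of 1.24, and raised 12 and lowered 3 (CCND1, EZR, TIMP1) with induction (median 1.13). Over all genes the medians were 0.001 and 0.003, with 20.1% and 18.4% called higher and 18.9% and 17.2% called lower. IL1B, an inflammatory cytokine, went from 29.7 ± 3.93 CPM in vector EtOH to 901 ± 138 in JUN EtOH (log2 4.92 ± 0.15, adjusted p = 4.54e-11). PLAU, the urokinase gene, went from 17.3 ± 2.09 to 112 ± 21.7 CPM (log2 2.69 ± 0.20, adjusted p = 1.31e-07). On YAP5SA induction 8 were called higher and 4 lower (KRT16, TIMP1, VEGFA, VIM) in vector cells (median 0.37), and 7 higher and 5 lower (HBEGF, IVL, KRT16, PLAU, VEGFA) in JUN cells (median 0.03). Of all tested genes 15.6% and 11.2% were called higher on induction in vector cells and JUN cells, and 14.4% and 10.3% lower.

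The induction responses of these targets were mixed. AREG, an EGFR ligand, rose from 213 ± 4.83 to 573 ± 125 CPM in vector cells (log2 1.43 ± 0.16, adjusted p = 1.14e-05) and from 790 ± 114 to 1640 ± 247 CPM in JUN cells (log2 1.05 ± 0.16, adjusted p = 2.87e-04). KRT16 fell in vector cells, from 57.0 ± 9.43 to 8.73 ± 0.915 CPM (log2 -2.71 ± 0.27, adjusted p = 3.50e-06). CCND1, the gene of cyclin D1, rose from 242 ± 30.9 to 664 ± 75.2 CPM in vector cells and had 222 ± 15.9 and 306 ± 22.1 CPM in JUN cells, with an interaction of -0.99 ± 0.17 (adjusted p = 0.00879). Interactions below 0 were called for 4 targets, among them LIF, HBEGF and CCND1, and 1 above 0, for IL6, which averaged under 5 CPM. Over all tested genes 0.826% had a called interaction below 0 and 0.291% above 0.

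**Figure D5:**
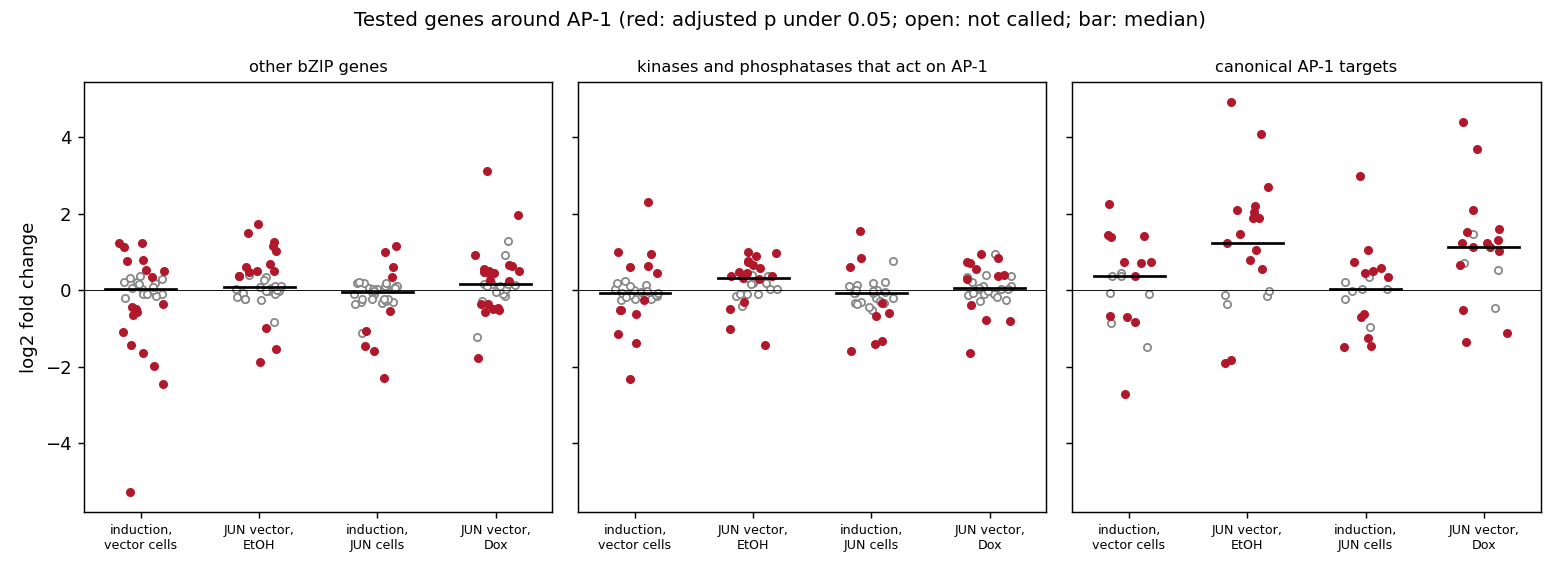
Log2 fold change of each tested gene of the 3 lists in the 4 pairwise comparisons, as points spread sideways for visibility. Filled red points had an adjusted p under 0.05, open points did not, and the bar is the list median. The canonical targets had their highest medians with the JUN vector, 1.24 without and 1.13 with induction.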

How the data were processed

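For each of 12 libraries of poly(A) RNA, the authors deposited the raw count of reads for every Entrez gene, not normalized. Per the study's methods, single-end reads were trimmed with Cutadapt and aligned to hg19 by Bowtie2 at default settings. They were counted per gene by countOverlaps from GenomicRanges. The submitters' processing notes give Cutadapt 4.2 and Bowtie2 2.3.5.1, whereas the methods name an earlier version of Bowtie2. Annotation and strand setting are not given in the sources used here, so genes with overlapping spans can share reads. The methods describe biological triplicates. A RefSeq table named 99.4% of the IDs. Lengths, GC content and spans were taken from GENCODE v44lift37, whose build, GRCh37, is that of hg19.

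Counts were tested in R 4.3.3 with the robust quasi-likelihood model of edgeR 4.0.16, fitted to all 12 libraries with 1 mean per group after filterByExpr (minimum count 10, minimum total 15) and TMM. The Benjamini-Hochberg adjustment covered all 14775 tested genes, and "called" means an adjusted p under 0.05. The biological coefficient of variation was 12.5%. The fit was checked on simulated counts. Correlations used log2 CPM with a prior count of 2. Totals of 18594867 to 28993487 counts limit the precision of low genes. Errors and p-values come from the spread between libraries. Reads carried no molecular identifiers.

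All 10 members were named. From each list up to 4 genes per comparison were eligible, those with the largest log2 fold change among called genes of at least 5 CPM on average, and for each member the 2 tested genes of that level with the highest Pearson r whose span did not overlap it. Some genes that this rule names are not reported here. The members and lists were chosen with earlier results of these data known. The alternatives were DESeq2 1.42.0, RLE or upper-quartile factors, no filter, a fit of the compared groups alone, a replicate block, leaving out each library, and coding length. A GC term and the length of all exons were added after seeing the data. Replicate numbers were not taken as pairs.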

Additional observations from a re-analysis of the deposited data

Results flagged for a closer look

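The log2 induction response of 2 members differed between JUN cells and vector cells by the interaction test of edgeR's quasi-likelihood model. For JUN the log2 change on induction was lower by 2.03 in JUN cells (interaction -2.03 ± 0.22 SE, adjusted p = 1.33e-04). The count sums endogenous and vector transcripts, which were not separated. From the higher start in JUN cells an equal rise in CPM gives a smaller log2 change. The value therefore does not show that the endogenous response differed. For FOSL2 the interaction was -0.94 ± 0.20 (adjusted p = 0.0294), a call lost in 9 of 18 alternative fits, with all 3 JUN Dox libraries below all 3 JUN EtOH libraries, and overlapping groups in vector cells.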

How the results depend on the processing

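Of the 27 member calls, 22 held in each of the 19 alternatives (18 for the interaction), the exceptions being those given above for JUND, MAFF in both comparisons with JUN Dox, ATF3 and FOSL2. Counts of calls over all genes moved most for the interaction, from 165 to 340 with DESeq2 and 292 with a term for GC trend, and between 97 and 242 when a library was left out (lowest without vector EtOH replicate 3). Its called members were then 1 or 2, JUN being called each time. For the JUN vector with induction, 3439 genes were called in a fit of the compared groups alone, against 5267. When a library was left out, calls for the JUN vector without induction ranged from 3823 (without JUN EtOH replicate 1) to 6765, and those for induction in JUN cells from 2082 (without JUN EtOH replicate 2) to 3861. The replicate block gave 4588, 5871, 3256, 5329 and 197 calls in the 5 comparisons, in place of 4443, 5766, 3168, 5267 and 165, and called FOS in both JUN vector comparisons. Of 18 same-numbered pairs of libraries, 13 had deviations from the group means with r above 0 and 7 with r above 0.1 (-0.258 to 0.466), and in no 2 groups did all 3 pairs pass 0.1, so the numbers were not taken as pairs. Every library of vector EtOH and JUN EtOH correlated best with its own number in the other group. The same held for all 6 libraries of vector EtOH and JUN Dox (same-numbered r of 0.093 to 0.156), groups that were not compared. The deposited library names are also numbered replicate by replicate across the groups. These are hints that same-numbered libraries were handled together, but no label states a pairing. In JUN EtOH and JUN Dox, 4 of 6 libraries correlated best with their own number, and in each remaining pair of groups 2 of 6.

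Directions turned only for members that were not called. ATF3 with the JUN vector without induction was at log2 -0.014 with upper-quartile factors, -0.026 with the replicate block and -0.003 with the GC term, and at -0.220 to 0.183 when a library was left out. Leaving out a library also gave -0.151 to 0.035 for JUN on induction in JUN cells, and, for the JUN vector with induction, -0.056 to 0.146 for JUNB and -0.234 to 0.107 for FOSL2. The ATF2 interaction was 0.005 with upper-quartile factors and -0.153 to 0.094 without a library. The cause was not tested. Genes with few counts, FOSB (5 to 27) and ATF3 (33 to 112), carry the largest errors.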
